A study of Mus musculus with 2 samples.

Results

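Transforming growth factor beta (TGF-β) and activin signalling was described through 10 listed genes of the 31055 features in the count matrices: the TGF-β ligands Tgfb1, Tgfb2 and Tgfb3, the activin subunit Inhba, the receptors Tgfbr1, Tgfbr2 and Tgfbr3, and the intracellular mediator and inhibitors Smad3, Smad7 and Skil. All 10 were found in both matrices. Their transcripts were counted as unique molecular identifiers (UMIs, 1 per captured molecule) in periosteal cells of Prx1Cre;mTmG mice. In these mice Cre driven by the Prx1 promoter, active in limb mesenchyme, switches a cell and its progeny from membrane tdTomato to membrane EGFP. There were 2 libraries, 1 of mice without injury (day 0) and 1 of mice at day 3 after tibial fracture, and no replicate of either. Both were made from explant cultures of the periosteum, the tissue layer around bone, in αMEM with 20% serum and bFGF at 10 ng/mL at 33 °C to 80% confluence. According to the design text of the series, P0 cells went into the assay without expansion. How many mice were pooled, their age and their sex are not given in the sources used here.

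TGF-β ligands are secreted in a latent form that is held by binding proteins and released by integrins and proteases. The active ligand assembles type II and type I receptor kinases (Tgfbr2 and Tgfbr1), which phosphorylate Smad2 and Smad3, while betaglycan (Tgfbr3) presents ligand, TGF-β2 above all. Activin A is a dimer of the inhibin beta A chain encoded by Inhba and signals to the same Smads through its own receptors. Smad7 and SnoN (Skil) are inhibitors that the pathway itself can induce, and TGF-β stored in bone matrix is a known regulator of osteoblasts, chondrocytes and osteoclasts in repair.

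The cells were compared in 3 classes that were built from clusters. The EGFP lineage held 2205 uninjured and 3327 day-3 cells, C1q macrophages 1152 and 3926, and osteoclast-like cells 77 and 586, of 4274 and 12790 retained cells. Although the labels call the cells Prx1-derived, the lineage made up 51.6% and 26.0% of them. EGFP stood at 2566 and 1848 CPM (UMIs per 1000000 UMIs of the class) in the lineage, at 102 and 50.8 in the macrophages and at 77.4 and 30.2 in the osteoclast-like cells. The lineage shares leave out clusters 13 (626 uninjured cells) and 16 (404 day-3 cells), which were kept out for their C1q transcripts. These had EGFP at 752.5 and 943 CPM and the lineage gene Prrx1 at 184 and 611 CPM. All 12 mesenchymal markers were at 10 CPM or more in the lineage, all 12 macrophage markers in the macrophages and 9 of 10 osteoclast markers in the osteoclast-like cells. The C1q genes and Acp5, which helped define the classes, are among these markers. The lists also overlapped: 9 of 12 macrophage markers reached 10 CPM in osteoclast-like cells of both libraries, and 5 and 2 in the lineage. Of the osteoclast markers 3 and 4 did so in macrophages. tdTomato, the colour of cells without Cre activity, was low throughout: 0.0869 and 0.0350 CPM in the lineage, 2.12 and 3.49 in the macrophages and 0.724 and 2.31 in the osteoclast-like cells. The EGFP-poor classes thus had the higher values, but the uninjured osteoclast-like one lay under the 2.17 CPM that 3 counts come to there. Clusters followed the libraries: clusters 6, 7 and 19 held most uninjured lineage cells and clusters 4, 5, 9 and 21 most day-3 ones, and cluster 3 held most uninjured macrophages and clusters 1, 2 and 8 most day-3 ones. Transcripts of other cells moved with the libraries: in the lineage the 9 neutrophil markers summed to 10.8 and 205 CPM, the 10 osteoclast markers to 67.5 and 119.8 and the 12 macrophage markers to 165 and 100.5. In the macrophages the neutrophil markers summed to 27.0 and 322 CPM and the osteoclast markers to 58.1 and 262, and the part of these transcripts in the ratios was not tested. The median depth was 24188 and 32279 UMIs per lineage cell, 10220 and 5332 per macrophage and 18272 and 16155.5 per osteoclast-like cell. The libraries shared 3 barcodes, and the first bases AAACCT opened 9 uninjured and 0 day-3 barcodes while AAACCC opened 0 and 10, although the labels name 1 kit for both. Of the lineage cells, 83.3% in the uninjured library and 14.5% at day 3 had Y-linked transcripts without Xist, so sex and injury cannot be told apart outside the values for male cells given below. Every interval below is a 95% interval for counting error only and says nothing of the spread between mice.

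Among the 3 classes Tgfb1 was highest in macrophages, while of the lineage transcripts Tgfb2 was lower and Inhba higher at day 3. The promoters of these 3 ligands are shown because the results turn on them. Each is the 250 bases before the RefSeq start site in GRCm38.p6 (mm10), read 5′ to 3′ on the gene's strand: Tgfb1 at chr7:25686752-25687001 (plus strand), Tgfb2 at chr1:186705990-186706239 (minus strand) and Inhba at chr13:16011601-16011850 (plus strand). Capitals mark the TATA box (TATAAA), the GC box (GGGCGG, or CCGCCC on the other strand) and the SMAD-binding CAGAC box (CAGAC or GTCTG), each searched on both strands.
Tgfb1: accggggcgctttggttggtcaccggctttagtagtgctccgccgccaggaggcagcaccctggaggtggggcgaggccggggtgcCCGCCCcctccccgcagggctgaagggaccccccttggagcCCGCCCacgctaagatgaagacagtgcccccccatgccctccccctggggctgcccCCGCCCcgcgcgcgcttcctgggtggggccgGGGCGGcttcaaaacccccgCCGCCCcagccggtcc
Tgfb2: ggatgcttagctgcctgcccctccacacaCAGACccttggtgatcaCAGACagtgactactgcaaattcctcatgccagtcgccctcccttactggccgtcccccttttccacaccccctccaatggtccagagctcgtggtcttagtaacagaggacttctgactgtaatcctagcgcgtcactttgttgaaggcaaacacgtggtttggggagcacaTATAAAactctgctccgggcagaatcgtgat
Inhba: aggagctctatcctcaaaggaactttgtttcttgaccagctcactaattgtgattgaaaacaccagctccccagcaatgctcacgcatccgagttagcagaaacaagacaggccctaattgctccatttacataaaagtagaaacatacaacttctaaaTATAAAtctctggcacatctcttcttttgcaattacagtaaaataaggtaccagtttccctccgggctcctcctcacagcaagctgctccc

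The Tgfb1 window held 5 GC boxes and no TATA box, and 75.2% of its bases were G or C, a share above that of 96.1% of 32817 RefSeq promoter windows of this length. The Tgfb2 window held a TATA box that begins 31 bases before the start site and 2 CAGAC boxes, at 53.6% G and C. In the Inhba window the TATAAA match began 91 bases before the start site, no GC box was found, and 43.2% of the bases were G or C. Among all windows 32.7% held a GC box, 12.4% TATAAA and 42.2% a CAGAC box, so such matches are common. They describe the letters and not the use of a site.

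Among the ligands, Tgfb1 was the one that all 3 classes held. It stood at 33.7 CPM (interval 32.3 to 35.3) in uninjured and 58.3 CPM (56.9 to 59.7) in day-3 lineage cells, and at 262 and 273 CPM in the macrophages. In the osteoclast-like cells it was 148 CPM in the uninjured and 168 CPM in the day-3 library. In both libraries the order was therefore macrophages, osteoclast-like cells, lineage, with no overlap of the counting intervals between classes. Of all Tgfb1 UMIs in retained cells, macrophages held 44.5% and 30.4%, the lineage 26.9% and 29.9% and osteoclast-like cells 2.85% and 7.16%. The rest, 25.7% and 32.5%, lay in unnamed clusters. At day 3 Tgfb1 was at 286 CPM in cluster 10, led by Cd74, and 278 in cluster 14, led by Ccr2. It was at 238 CPM in cluster 17, led by Prtn3, and 219 in cluster 0, led by Mmp12. Cluster 11, led by Nfatc1, had 178 CPM and the neutrophil-led cluster 15 had 102 CPM, so a high level was not particular to the C1q macrophages. Macrophage Tgfb1 was 7.76-fold the lineage level without injury and 4.68-fold at day 3.

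Between the libraries Tgfb1 was 1.73-fold higher (1.64 to 1.82) in day-3 lineage cells, short of the 2-fold used here to call a gene apart. In the macrophages the ratio was 1.04 (0.999 to 1.09) and in the osteoclast-like cells 1.13 (0.976 to 1.31), both intervals holding 1. The macrophage value lay at the 25.8th percentile of the genes compared, whose median log2 ratio was 0.67 in this class, 0.19 in the lineage and 0.46 in the osteoclast-like cells. Relative to that median gene, macrophage Tgfb1 was 0.653-fold and osteoclast-like Tgfb1 0.820-fold the uninjured level, so these directions turn with the centring. The macrophage transcript C1qa was at 17.5 and 4.43 CPM in the uninjured and day-3 lineage cells, and at 1336 and 899 CPM in the macrophages, while the neutrophil and osteoclast marker sums given above were higher in day-3 lineage cells. The part of other cells' RNA in lineage Tgfb1 was not tested. Leaving out cycling cells gave a lineage Tgfb1 ratio of 2.04, past 2-fold.

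Tgfb2 and Tgfb3 were transcripts of the EGFP lineage. Tgfb2 was at 26.4 CPM in uninjured and 8.06 CPM in day-3 lineage cells, against 7 and 5 UMIs in all, or 0.572 and 0.201 CPM, in the macrophages. Osteoclast-like cells held no Tgfb2 UMI in either library, where the 3 counts that a count of 0 allows come to 2.17 and 0.315 CPM. Tgfb3, at chr12:86056745-86079041, was at 29.6 and 9.03 CPM in the lineage, 1.96 and 0.522 CPM in the macrophages, and 2 and 5 UMIs in the osteoclast-like cells. Both genes were 3.28-fold lower in the day-3 lineage cells, with ratios of 0.305 (0.281 to 0.331) for Tgfb2 and 0.305 (0.282 to 0.329) for Tgfb3. In male lineage cells alone the ratios were 0.291 and 0.269. When each cell was given equal weight, the Tgfb2 ratio was 0.528 and no longer past 2-fold.

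The mix of the TGF-β isoforms in the lineage therefore differed between the libraries. Tgfb1 made up 37.6% of the lineage's Tgfb1, Tgfb2 and Tgfb3 UMIs without injury (36.2 to 38.9) and 77.3% at day 3 (76.4 to 78.2). The share of Tgfb2 was 29.4% and 10.7%, and that of Tgfb3 33.0% and 12.0%. In macrophages and osteoclast-like cells Tgfb1 was 99.0% or more of these UMIs in both libraries. Since UMIs are counted at the 3′ end, the isoforms were set side by side as molecules captured, without a correction for capture efficiency.

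**Figure D1:**
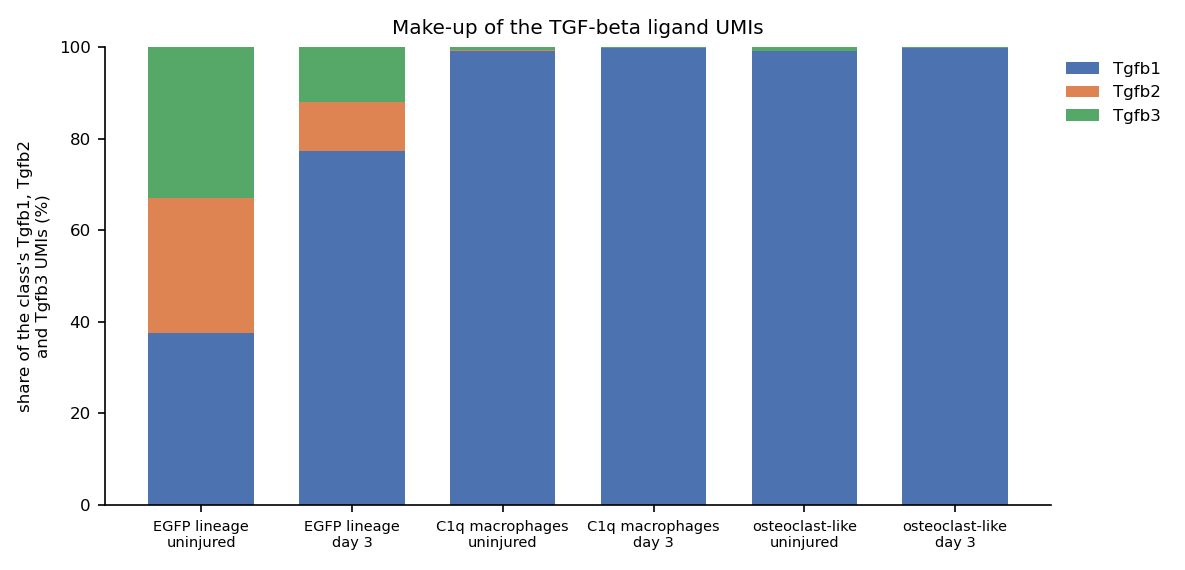
Stacked bars give the percentage of each class's Tgfb1, Tgfb2 and Tgfb3 UMIs that came from each gene, by class and library. Tgfb1 fills 37.6% of the uninjured and 77.3% of the day-3 lineage bar, and 99.0% or more of the other bars.

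Inhba, which encodes the activin A subunit, had the most captured UMIs of the 4 ligand genes in the lineage. It was at 127 CPM (124 to 130) in uninjured and 320 CPM (316 to 323) in day-3 lineage cells, a ratio of 2.52 (2.45 to 2.58). The share of lineage cells with an Inhba UMI was 59.7% and 86.9% as sequenced. With every cell thinned to 3000 UMIs it was 20.6% of 2199 and 45.9% of 3110 cells, so the higher share at day 3 was also seen at equal depth. Among male cells the levels were 133 and 380 CPM. The lineage supplied 90.3% of the Inhba UMIs of all retained uninjured cells and 84.0% of those at day 3, from 65.0% and 61.2% of all UMIs.

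In the other classes Inhba was lower. Macrophages had 4.58 and 12.0 CPM and osteoclast-like cells 1.45 CPM (2 UMIs) and 6.72 CPM. Free RNA from lysed cells gives low counts in droplets of any cell type, and EGFP and Prrx1, a lineage transcription factor, were also counted in macrophages. At day 3 there were 23.7 Inhba UMIs per 100 EGFP UMIs in macrophages, 22.2 in osteoclast-like cells and 17.3 in the lineage itself. For Prrx1 the figures in macrophages and lineage were 33.5 and 30.4. The thinned share of day-3 macrophages with an Inhba UMI was 4.03% and that with a Prrx1 UMI 4.65%. The part of free RNA in macrophage Inhba was not tested, and its day-3 ratio there, 2.63, was 4.21 with the shallow C1q cluster added and 4.02 without cycling cells. Inhba stood higher against EGFP in 3 unnamed day-3 clusters: 65.9 per 100 in cluster 0, a shallow cluster led by Mmp12 with C1q transcripts, 60.8 in the neutrophil-led cluster 15 and 75.9 in cluster 16, described below.

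**Figure D2:**
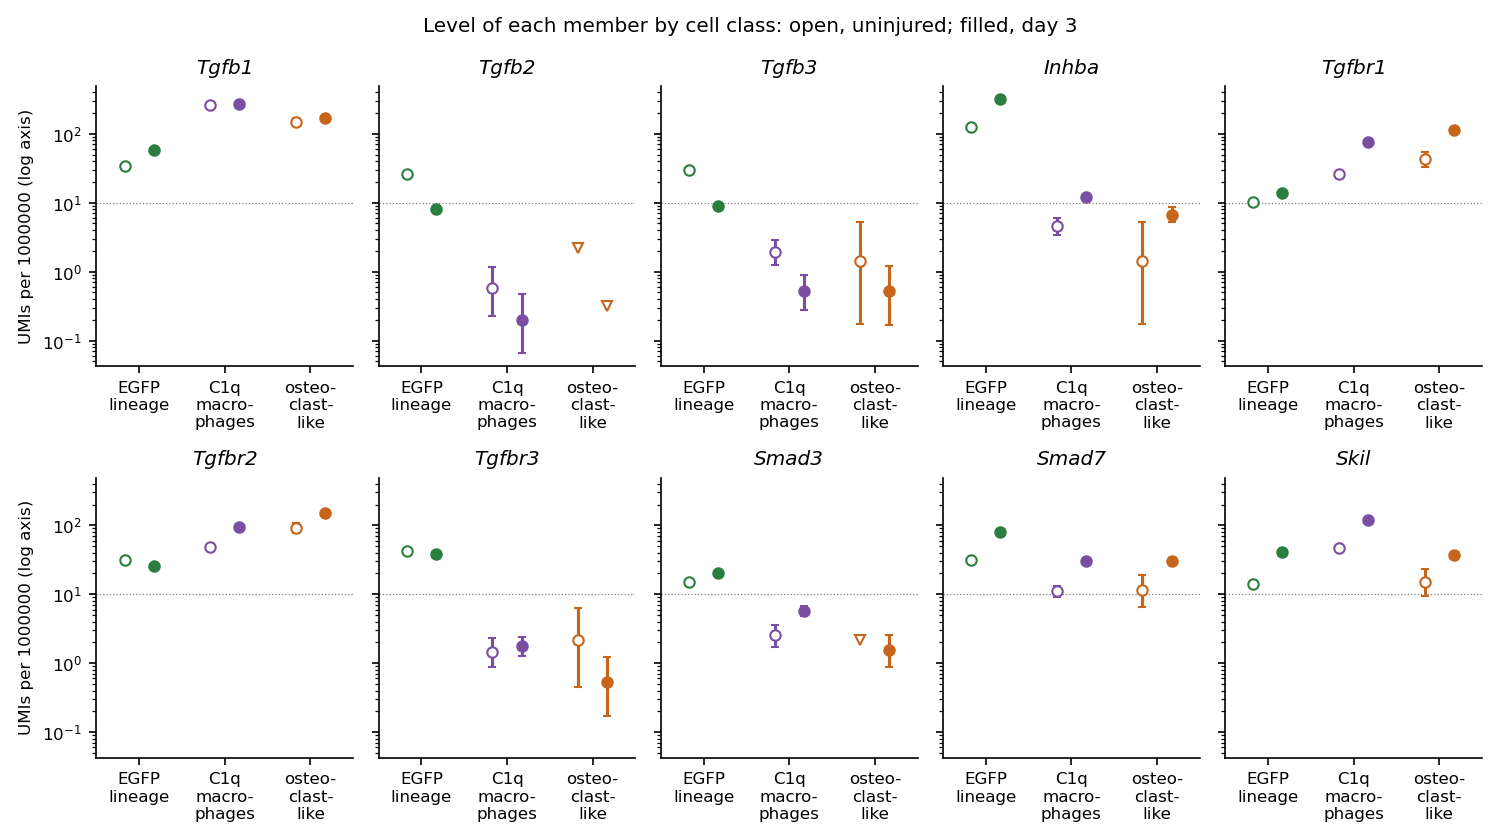
Each panel gives 1 gene's CPM on a log axis in the 3 classes, open for uninjured and filled for day 3, with 95% counting intervals and a dotted line at 10. Open triangles stand for a count of 0 at the limit of 3 counts. Tgfb2, Tgfb3, Inhba, Tgfbr3, Smad3 and Smad7 are highest in the lineage, and Tgfb1, Tgfbr1 and Tgfbr2 lowest there.

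The type I and type II receptor genes were lowest in the lineage. Tgfbr1, the type I kinase at chr4:47353222-47414931, was at 10.3 and 13.7 CPM in the lineage, 25.8 and 76.9 in the macrophages and 42.7 and 112 in the osteoclast-like cells. Tgfbr2, the ligand-binding type II kinase at chr9:116084293-116175360, was at 30.9 and 26.0 CPM in the lineage, 48.1 and 93.1 in the macrophages and 91.9 and 149 in the osteoclast-like cells. For both genes and in both libraries the order was osteoclast-like cells, macrophages, lineage, and no counting intervals of neighbours overlapped. At day 3 Tgfbr1 was 5.61-fold and Tgfbr2 3.58-fold higher in macrophages than in the lineage.

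Between libraries Tgfbr1 was higher at day 3 in both myeloid classes, 2.98-fold (2.64 to 3.37) in macrophages and 2.62-fold (2.02 to 3.47) in osteoclast-like cells. In the lineage its ratio was 1.33 (1.21 to 1.47), and 0.914 when cycling cells were left out. Tgfbr2 was 1.93-fold higher (1.77 to 2.12) in macrophages and 1.62-fold (1.35 to 1.95) in osteoclast-like cells, both short of 2-fold. These passed 2-fold in 1 alternative each, at 2.004 in macrophages without cycling cells and 3.29 in osteoclast-like cells with the libraries clustered apart. The lineage Tgfbr2 ratio was 0.839 (0.791 to 0.891), and 1.01 without the chondrocyte-, osteoblast- and contractile-led clusters. Whether the ratios differ between classes could not be tested with 1 library per group.

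Tgfbr3, the co-receptor betaglycan at chr5:107106570-107289629, was highest in the lineage among the 3 classes. It was at 42.6 and 38.4 CPM there, 1.47 and 1.77 in macrophages and 2.17 and 0.525 in osteoclast-like cells, the last from 3 and 5 UMIs. Lineage cells thus held 28.9-fold and 21.7-fold the macrophage level. Of all Tgfbr3 UMIs in retained cells the lineage held 73.4% and 89.7%, and unnamed clusters 26.0% and 9.29%. The unnamed uninjured cluster 13 of 626 cells, with EGFP at 752.5 CPM and C1qa at 270 CPM, had Tgfbr3 at 59.8 CPM. The day-3 ratio in the lineage was 0.902 (0.859 to 0.949), a small difference beside those of the ligands.

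Of the intracellular members, Smad3, the receptor-activated mediator at chr9:63646767-63757994, was at 14.8 and 20.3 CPM in the lineage and 2.53 and 5.78 in macrophages. In osteoclast-like cells 0 UMIs were counted without injury and 15 UMIs, or 1.57 CPM, at day 3. The ratio in the lineage was 1.37 (1.26 to 1.48). The other receptor-activated mediator of the pathway, Smad2, was at 14.1 and 31.2 CPM in the lineage and 19.8 and 49.8 in the macrophages. In osteoclast-like cells it was at 13.0 and 22.1 CPM. The Smad2 ratios in that order were 2.21 (2.05 to 2.39), 2.52 (2.19 to 2.90) and 1.70 (1.05 to 2.92).

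Smad7, the inhibitory Smad that binds the type I receptor, was at 31.3 CPM in uninjured and 80.6 CPM in day-3 lineage cells. Macrophages held 11.0 and 30.7 CPM and osteoclast-like cells 11.6 and 30.01. The 3 ratios were 2.58 (2.45 to 2.71), 2.79 (2.32 to 3.37) and 2.59 (1.57 to 4.60), with overlapping intervals, and the lineage level was the highest in both libraries. With cells thinned to 3000 UMIs the myeloid ratios were 4.29 and 4.46. After this thinning 26 of 1092 uninjured and 310 of 3272 day-3 macrophages had a Smad7 UMI. In osteoclast-like cells these were 2 of 75 and 64 of 563, so that ratio rests on few uninjured counts. Macrophages and osteoclast-like cells could not be ordered, since their intervals overlapped. At 3000 UMIs per cell 8.41% and 19.6% of lineage cells had a Smad7 UMI.

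Skil, which encodes the SMAD co-repressor SnoN at chr3:31095058-31122577, was instead highest in macrophages. It was at 47.3 and 120 CPM there, 14.0 and 41.4 in the lineage and 15.2 and 37.3 in the osteoclast-like cells. The ratios were 2.55 (2.33 to 2.79), 2.96 (2.74 to 3.19) and 2.45 (1.58 to 4.01) in that order. The lineage and osteoclast-like levels were indistinguishable without injury (ratio 0.921, 0.598 to 1.496) and at day 3 (1.11, 0.997 to 1.24). Smad7 and Skil were past 2-fold in all 3 classes, except when the myeloid ratios were centred on the median gene or, for Smad7 in macrophages and Skil in both, scaled by TMM factors. The osteoclast-like Skil ratio, which rests on 21 uninjured UMIs, was also 1.83 to 1.93 in 4 alternatives of cell choice.

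**Figure D3:**
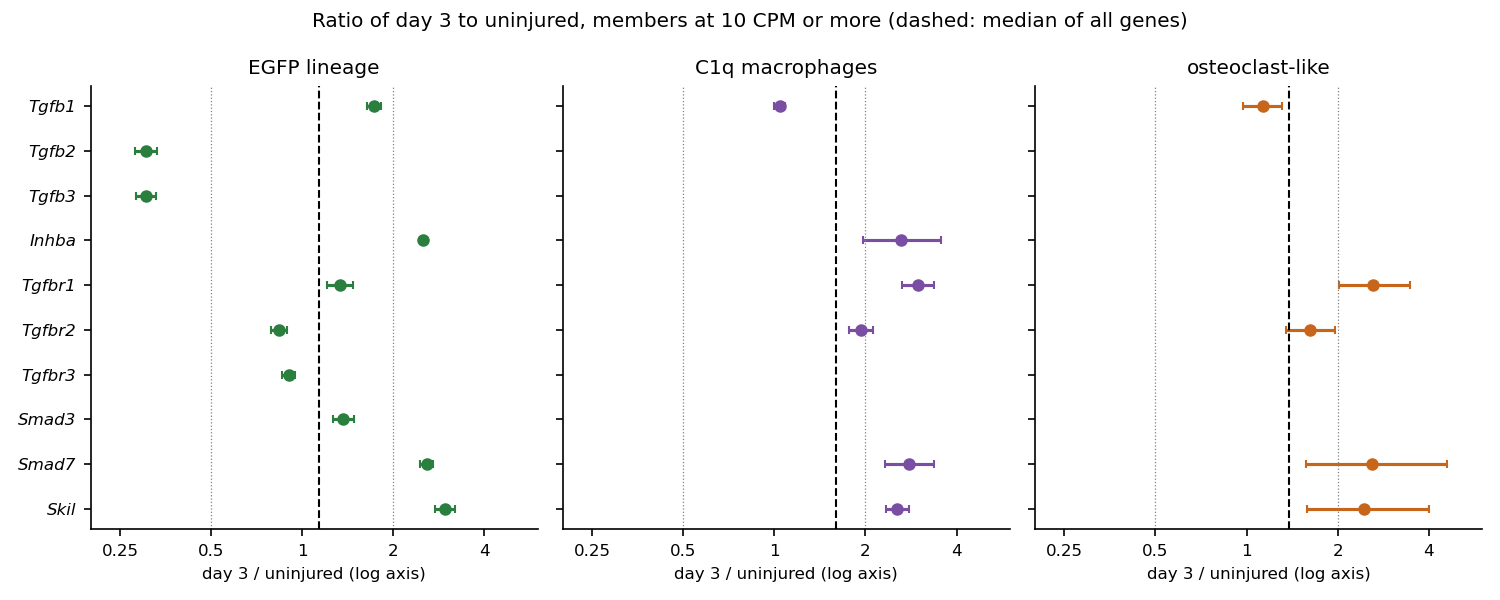
Points give the ratio of day-3 to uninjured CPM on a log axis, with 95% counting intervals, for members at 10 CPM or more in 1 library, by class. Dotted lines mark 2-fold either way and the dashed line the median of all genes. Tgfb2 and Tgfb3 lie at 0.305 in the lineage, and Smad7 and Skil lie right of 2-fold in each panel.

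Counted over the members, 3 of 10 in the lineage (Inhba, Smad7 and Skil) reached 2-fold higher at day 3 and 2 reached 2-fold lower (Tgfb2 and Tgfb3). Of 8123 genes at 10 CPM or more, 17.2% were higher and 6.3% lower by this rule. In macrophages 6 members reached 10 CPM, of which 4 were higher (Tgfbr1, Smad7, Skil and Inhba) and 0 lower, beside 33.8% and 3.69% of 8296 genes. In osteoclast-like cells 3 of 5 were higher (Tgfbr1, Smad7 and Skil) and 0 lower, beside 19.4% and 2.76% of 7710 genes. Centred on the median gene, 3 of 10 were still called higher and 2 lower in the lineage, but 0 of 5 in either myeloid class. By this centred rule 974 of 7905 genes were higher and 766 lower in the lineage. In macrophages 530 of 7600 were higher and 1306 lower, and in osteoclast-like cells 399 and 677 of 7203. Inhba was then 1.65-fold higher in macrophages. In macrophages and osteoclast-like cells in turn, Tgfbr1 was 1.87-fold and 1.90-fold, Smad7 1.75-fold and 1.88-fold and Skil 1.60-fold and 1.78-fold higher.

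Counted between classes, 6 of 10 members were at least 2-fold higher in uninjured lineage cells than in macrophages (Tgfb2, Tgfb3, Inhba, Tgfbr3, Smad3 and Smad7) and 3 lower (Tgfb1, Tgfbr1 and Skil). Among all genes 17.8% were higher and 17.5% lower. At day 3 Tgfb2 and Tgfb3 were below 10 CPM in both classes. Of the other 8 members, 4 were higher (Inhba, Tgfbr3, Smad3 and Smad7) and 4 lower (Tgfb1, Tgfbr1, Tgfbr2 and Skil), beside 15.6% and 28.2% of all genes. Between osteoclast-like cells and macrophages, 0 of 5 members were higher and 1, Skil, was lower in the former in the uninjured library, beside 9.13% and 16.3% of all genes. At day 3 these counts were 0 and 1 of 6, again Skil, beside 8% and 20.6%, so both were near the shares of all genes.

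Within the lineage the ligands varied from cluster to cluster. Tgfb2 was highest where skeletal genes led: 129 CPM (84.8 to 187, from 27 UMIs) in the shallow day-3 cluster 21, led by the cartilage genes Col2a1 and Acan, and 63.7 CPM (57.9 to 69.9) in the uninjured cluster 19, led by the osteoblast genes Ibsp and Alpl. The other uninjured lineage clusters 6 and 7 had 18.1 and 24.1 CPM, and the day-3 clusters 4, 5 and 9 had 9.39, 8.14 and 4.92 CPM. Tgfb3 followed the same layout, with 57.2 CPM in cluster 21, 36.9 in cluster 19, 24.5 and 32.3 in clusters 6 and 7, and 7.23 to 10.1 in clusters 4, 5 and 9. The day-3 clusters other than 21 thus lay below the uninjured clusters other than the contractile cluster 18, which had 2.47 CPM of Tgfb2 in the uninjured and 0.453 CPM in the day-3 library, from 2 and 1 UMIs.

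Inhba was lowest in that contractile cluster, led by Tpm2 and Tagln, at 16.1 and 55.3 CPM. Among the large clusters it was at 64.0 CPM in cluster 6, led by Ndufa4l2 and Ptn, and 165 in the uninjured cluster 7, led by Cnn1 and Acta2. At day 3 it was at 237 CPM in the mitotic cluster 5, 342 in cluster 4, led by Gzme and Mcpt8, and 421 in cluster 9, led by the secreted factors Mmp3, Nppc and Il33. The highest level, 715 CPM (698 to 734), was in the unnamed day-3 cluster 16 of 404 cells, which had EGFP at 943 CPM together with C1qa at 111 CPM and so fell outside the lineage. Inhba was among the 10 genes that led that cluster, next to Ctgf, Ptgs2 and Tnc. Smad7, at 131 CPM, was also highest there, beside 77.1, 90.7 and 77.7 CPM in clusters 4, 5 and 9.

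**Figure D4:**
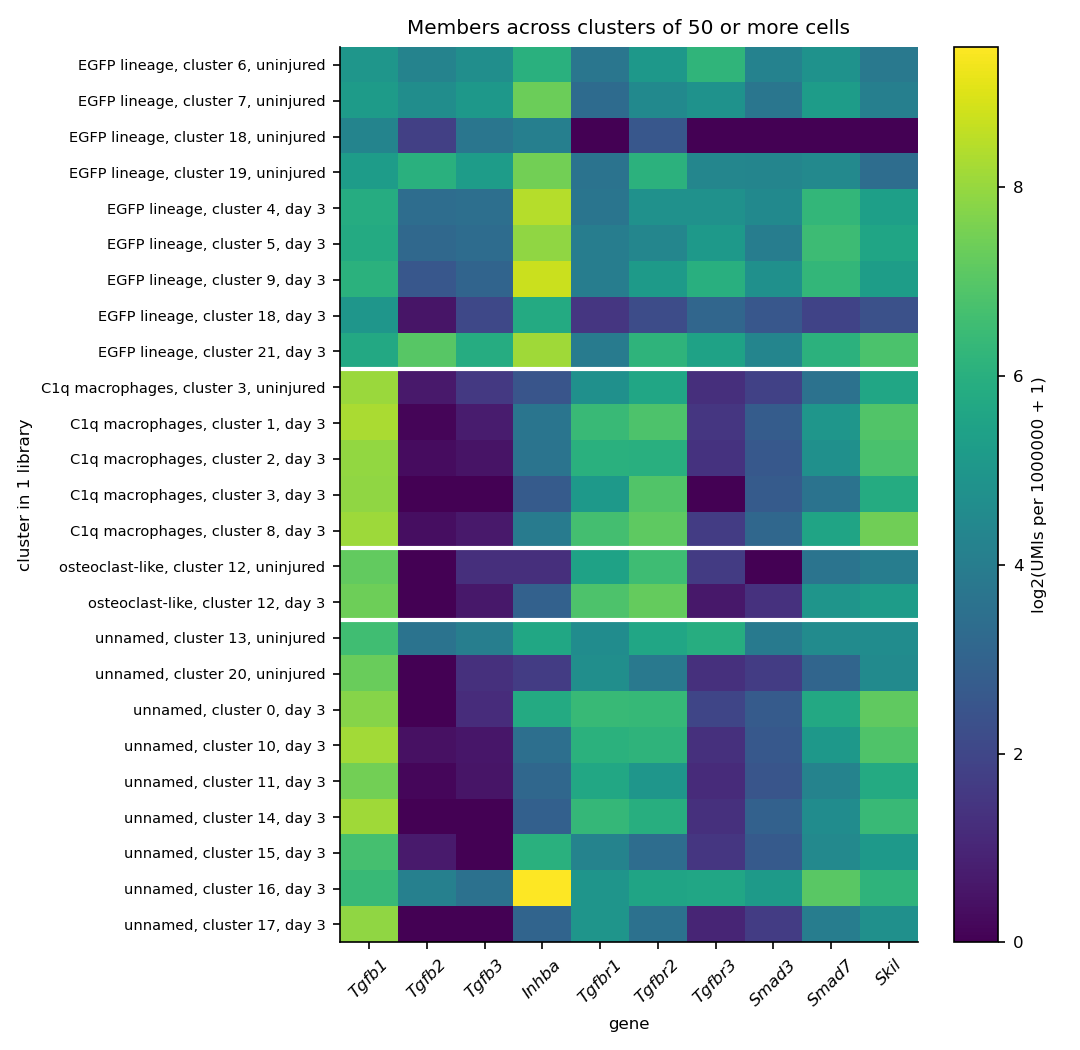
Colour gives log2(CPM + 1) of each member (columns) in each cluster of 1 library with 50 or more cells (rows), grouped by class with unnamed clusters last. The Inhba column is brightest in the unnamed day-3 cluster 16, at 715 CPM, and Tgfb2 in the lineage cluster 21, at 129 CPM.

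Across the 25 such cluster and library units, Tgfb2 and Tgfb3 had a Pearson correlation of 0.943 on log2(CPM + 1), and Tgfb1 correlated at -0.701 and -0.817 with them. Tgfb1 and Tgfbr1 were at 0.875, and Inhba and Tgfbr3 at 0.838. These units share libraries, depth and the clustering, and the values are descriptions. Among 6154 genes at 50 CPM or more in at least 1 unit, the 3 most like Tgfb1 were Dgkz, Lyn and Arrb1 (0.971 to 0.956). Those most like Tgfb2 were Wisp1, Col11a1 and Spats2l (0.976 to 0.967), and most like Tgfb3 were Ccdc80, Gpx7 and Sparc (0.985 to 0.975). For Inhba they were Utrn, Tpbg and Twist1 (0.9495 to 0.940). Among receptors, Tgfbr1 was most like Rreb1, Dnajb14 and Wdfy2 (0.971 to 0.965), Tgfbr2 most like Tspyl1, Serp1 and Slc31a1 (0.899 to 0.876) and Tgfbr3 most like Ank3, Has2 and Ptprf (0.977 to 0.959). Smad3 was most like Utrn, Frmd6 and Ugcg (0.913 to 0.890), Smad7 most like Csnk1g1, Kif1b and Tsc22d2 (0.963 to 0.936) and Skil most like Iqgap1, Susd6 and Arhgap17 (0.972 to 0.964).

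The other pathway genes were read in the lineage from 6 lists that also hold the members, to be set against the 17.2% higher and 6.3% lower among all genes. Of 6 ligands at 10 CPM or more, 3 reached 2-fold higher at day 3 and 2 lower, the additional ones being Gdf11, at 3.77 and 10.1 CPM (2.66-fold), and Inhbb, the activin B subunit, at 4.78 and 11.2 CPM (2.35-fold). Among 10 genes of latency and release, 5 were higher and 0 lower. Itgb3, a subunit of an integrin that binds latent TGF-β, had 1.53 and 37.1 CPM, or 24.3-fold (19.7 to 30.3). It is also an osteoclast gene, and the osteoclast enzyme Acp5 stood at 5.93 and 9.38 CPM in the same lineage cells. In osteoclast-like cells Acp5 was at 2593 and 4393 CPM and Itgb3 at 64.4 and 47.6 CPM. The part of osteoclast RNA in lineage Itgb3 was not tested. In the lineage the latent TGF-β binding protein gene Ltbp4 had 4.57 and 21.2 CPM, or 4.64-fold. The lowest were the fibrillin gene Fbn1, at 213 and 110 CPM (0.514), and Lrrc32, which encodes the latent TGF-β anchor GARP, at 35.1 and 28.9 CPM (0.823). Of the 6 antagonists 1 was higher, the activin-binding follistatin gene Fst, at 54.5 and 112 CPM (2.06-fold). Dcn was at 1.15-fold, Fstl1 at 0.740 and the pseudoreceptor gene Bambi at 0.592.

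Among 4 receptors and co-receptors at 10 CPM or more in the lineage, 0 were higher and 0 lower, Eng (endoglin) being at 19.2 and 18.4 CPM. The activin receptor genes Acvr1b and Acvr2a stayed under 6 CPM in the lineage in both libraries, at 4.14 and 3.68 CPM and at 5.49 and 5.38 CPM. In macrophages Acvr1b was at 5.88 and 13.8 CPM and Acvr2a at 3.27 and 7.43 CPM. In osteoclast-like cells they were at 5.79 and 4.72 CPM and at 2.895 and 4.20 CPM. Of 12 Smads and regulators, 8 were higher and 0 lower in the lineage, and the list's median log2 ratio was 1.26 beside 0.19 for all genes. Pmepa1, a feedback inhibitor that holds receptor-activated Smads, had 68.9 and 421 CPM, or 6.11-fold (5.91 to 6.31), and the ubiquitin ligase gene Smurf2 had 14.4 and 74.7 CPM, or 5.19-fold. The lowest of the list were the co-repressor genes Ski (1.19-fold) and Tgif1 (1.41-fold). In macrophages 10 of 11 and in osteoclast-like cells 7 of 11 of these genes were higher, beside 33.8% and 19.4% of all genes. Centred on the median gene, 6 of 12 were higher in the lineage, 3 of 10 in macrophages and 2 of 11 in osteoclast-like cells. Among all genes the centred counts were 974 of 7905, 530 of 7600 and 399 of 7203 in turn. Without centring, Pmepa1 was 7.30-fold (6.54 to 8.18) higher in macrophages and 7.68-fold (5.76 to 10.5) higher in osteoclast-like cells.

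Of the 16 common target genes 2 were higher and 5 lower in the lineage, beside 17.2% and 6.3% of all genes, with a median log2 ratio of -0.18. Centring also moved the other lists, to 1 of 4 ligands, 3 of 10 genes of latency and release and 0 of 6 antagonists higher, and to 1 gene of latency and release and 6 targets lower. Under centring 974 of 7905 genes were higher and 766 lower in the lineage. Tnc, a matrix protein of healing tissue, had 49.9 and 420 CPM (8.41-fold) and Ctgf 27.1 and 164 CPM (6.06-fold). Postn, the periosteal matrix protein periostin, had 43.1 and 6.58 CPM (0.153) and the type I collagen gene Col1a1 1649 and 286 CPM (0.174). In macrophages Postn was counted with 31 UMIs without injury and 3 UMIs at day 3, a ratio of 0.0476 (0.00931 to 0.152), and its level in the lineage moved the same way. Col1a1 in macrophages likewise had 54.6 and 8.56 CPM, and the part of free lineage RNA in this was not tested. Of 9 genes of latency and release, 6 were higher and 1 lower in uninjured lineage cells than in macrophages, beside 17.8% and 17.5% of all genes, while Itgav was at 0.969-fold and Itgb5 at 0.740-fold. The lower one was Nrros, the anchor of latent TGF-β1 on myeloid cells, at 134 and 229.9 CPM in macrophages and 2.35 and 2.17 in the lineage, while Lrrc32 had 2.37 and 1.29 CPM in macrophages. At day 3, 8 of 11 were higher and 2 lower, Nrros and Itgb5, beside 15.6% and 28.2% of all genes. Itgb5 was then at 0.283-fold and Itgav at 0.749-fold. Nrros, Itgav and Itgb5 were named for this contrast after its values were seen.

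**Figure D5:**
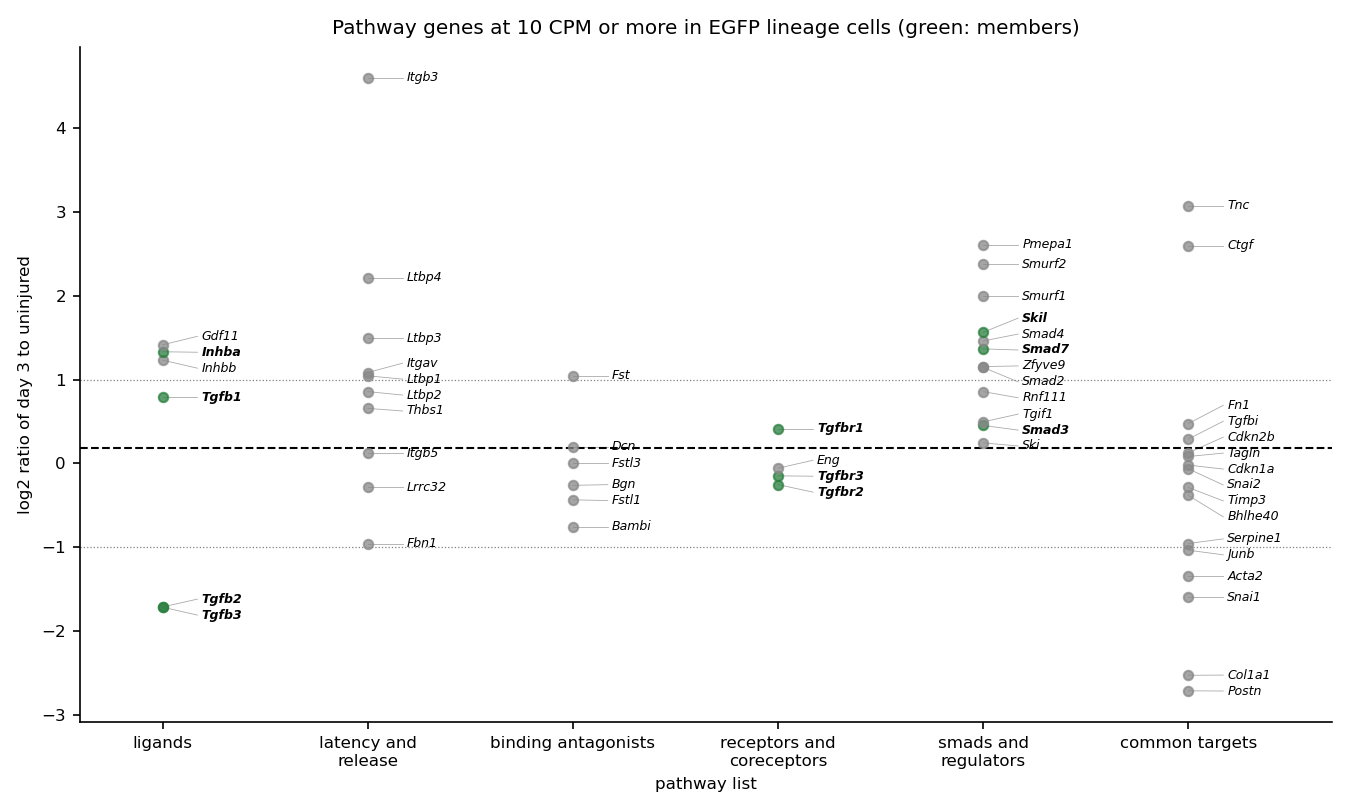
Points give the log2 ratio of day-3 to uninjured CPM in EGFP lineage cells for pathway genes at 10 CPM or more, by list, with members in green and bold. Dotted lines mark 2-fold and the dashed line the median of all genes at 0.19. The Smads and regulators lie above that line, while the targets spread from -2.71 for Postn to 3.07 for Tnc.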

How the data were processed

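Periosteal cells were profiled with the 10x Chromium 3′ chemistry, in 1 uninjured and 1 day-3 library. The labels give the molecule as genomic DNA, whereas the values are transcript counts. The deposited values are raw counts of UMIs for each gene in each barcode, per the file headers. The submitters' processing notes list mm10 as the build, with Seurat 4.0.1 and Cell Ranger as tools, and software version 3.1.0 stands in the matrix header. The sources used here do not give how cells were called. The uninjured library held 4573 barcodes and 94034112 UMIs (median 19366) and the day-3 library 16332 and 227191961 (median 7030).

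Barcodes with under 500 genes, under 1000 UMIs or over 10% mitochondrial UMIs were removed. Scrublet's automatic threshold marked 0 and 386 cells, too few in the uninjured library, so the highest scores were removed at 0.8% per 1000 barcodes (157 and 1673 cells). Clustering used scanpy 1.11.5, with 2000 variable genes, 30 components, 15 neighbours, leidenalg 0.10.2 at resolution 1 and no integration. A cluster joined the lineage with EGFP at 500 CPM or more and C1q and Acp5 each under 5% of their highest cluster. It joined the macrophages (C1q) or osteoclast-like cells (Acp5) with EGFP under 500 CPM and at least 25% of the highest cluster. These thresholds were set after the clusters were seen, and 10 of 23 clusters stayed unnamed for mixed, shallow or other leading markers.

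UMIs were summed by class. A ratio has an exact conditional binomial interval, a level an exact Poisson one and a share an exact Clopper-Pearson one. A gene was called apart at 2-fold and at least 10 CPM on the higher side, and a count of 0 was set at 3 counts. With 1 library per group there was no test. Intervals cover counting error only, since cells and UMIs of 1 library are no replicates. The members, lists and rules were chosen with earlier results of these data known. All 10 members are named. From each list the 2 highest and 2 lowest lineage ratios at 10 CPM or more and any gene 10-fold apart were named, and for likeness the 3 highest correlations. Promoters came from RefSeq (6 members matched) and gene positions from GENCODE on GRCm38. edgeR 4.0.16 gave TMM factors. Alternatives were scaling, weighting, thinning, doublets, mitochondrial limit, resolution, libraries clustered apart, cycling and male cells, classes per cell and CPM minima. Python 3.11.15, scipy 1.17.1, numpy 2.4.6 and pandas 2.3.3 were also used.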

Additional observations from a re-analysis of the deposited data

Results flagged for a closer look

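Junb, an immediate-early gene in the list of common targets, moved in opposite directions in the lineage and the macrophages. Its ratio of day 3 to uninjured was 0.488 in lineage cells, at 183 and 89.3 CPM, and 1.93 in C1q macrophages, at 190 and 367 CPM. The macrophage ratio was short of 2-fold. It lay at the 63.4th percentile of the genes compared, whose median log2 ratio was 0.67 in this class. In osteoclast-like cells the Junb ratio was 1.175 (1.06 to 1.31), at the 37.4th percentile. With 1 library per group the difference between the classes was not tested.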

How the results depend on the processing

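The 12 ratios that were called in the 3 classes were recomputed under 15 alternatives each, 180 values in all. None reversed, and 16 fell under 2-fold, mostly with TMM scaling or centring on the median gene in the myeloid classes. Of 158 alternative counts of called members, 146 stayed within 1.5 times. Equal weight per cell left 1 member lower in the lineage. In macrophages TMM scaling left 1 member higher and centring on the median gene 0, and in osteoclast-like cells centring left 0. With a minimum of 50 CPM, 0 members were lower in the lineage, 2 were higher in macrophages and 1 in osteoclast-like cells. The same minimum left 1 member higher and 1 lower in the lineage than in macrophages without injury, and 2 higher at day 3, because fewer genes pass it. With no minimum, 2 members each were lower at day 3 in macrophages and osteoclast-like cells, from few UMIs. The cause of the other changes was not tested. Adding the mixed day-3 cluster, the shallow C1q cluster or removing chondrocyte-, osteoblast- and contractile-led clusters, and centring, were chosen after seeing the data. No alternative added the mixed uninjured cluster 13 of 626 cells to the lineage as a whole. It had Tgfb1 at 95.1, Tgfb2 at 11.3 and Inhba at 49.5 CPM, beside 33.7, 26.4 and 127 CPM in the uninjured lineage. Its part in the lineage ratios was not tested. No paired analysis was possible because each group has 1 library. The depth limits Tgfb2, Tgfb3, Tgfbr3 and Smad3 in osteoclast-like cells, which rest on 0 to 15 UMIs.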
